A study of Mus musculus with 2 samples.

Results

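The 45 genes described here encode the machinery of mitosis: the cyclins and kinases that start it, the kinetochore and its checkpoint, the spindle motors, and the proteins that split the cell. They were taken by symbol from a fixed list, and all 45 have a row among the 44792 genes of the deposited table. RNA sequencing counts were compared between a compressed and a control library of OCCM-30 cells. This immortalized mouse line has cementoblast properties and is described as wild type, but its genotype was not examined here. Cementoblasts lay down the mineralized cementum of tooth roots. The compressed cells were put under compressive force, whose size and duration the labels do not state, and the other library came from control cells. Both libraries came from the same line grown in the same serum-containing medium. With 1 library in each group no difference below has a replicate check, and no p-value is given. The values compare these libraries and not the conditions.

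Mitosis begins when cyclin A and cyclin B activate the kinase CDK1, aided by CDC25 phosphatases. Kinetochores then tie the chromosomes to spindle microtubules, and the spindle assembly checkpoint holds back the anaphase-promoting complex until every chromosome is attached. Most of these genes are transcribed late in the cell cycle, in G2 and M phase, by the transcription factor FOXM1 and by MuvB complexes that bind the CHR promoter element, often next to CCAAT boxes bound by NF-Y. In quiescent or arrested cells the same promoters are held down by the DREAM complex, so the transcripts are widely read as a mark of proliferating cells.

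Promoter sequences of 4 members are printed because these are, among members with a mean of at least 20 CPM (counts per 1000000 counts of the scaled library total) and an entry, those with the 2 highest and the 2 lowest ratios. They come from RefSeq on GRCm38.p6, run 5′ to 3′ on the gene's strand, and span 250 bases before to 50 bases after the start. Capitals mark the letters of the CHR (TTTGAA), of a CCAAT box or of an E2F-type motif, searched on both strands. The E2F-type letters were TTGGCGC, the variant TTGCCGC, the variant TTCGCGC or the variant TTCCCGC, and the reverse of the first can overlap CCAAT. Cenpf lies on the minus strand at chr1:189688037-189688336, Ttk on the plus strand at chr9:83834439-83834738, Bub3 on the plus strand at chr7:131560120-131560419 and Ccnb1 on the minus strand at chr13:100786437-100786736. For Bub3, the first of its overlapping entries is shown. The first pair of sequences below had the higher ratios.
Cenpf: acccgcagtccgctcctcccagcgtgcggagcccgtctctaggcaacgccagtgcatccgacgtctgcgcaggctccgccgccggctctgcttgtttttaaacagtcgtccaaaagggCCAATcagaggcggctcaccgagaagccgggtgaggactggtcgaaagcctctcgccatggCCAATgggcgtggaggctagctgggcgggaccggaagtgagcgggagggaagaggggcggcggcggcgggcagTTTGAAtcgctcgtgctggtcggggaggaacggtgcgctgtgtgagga
Ttk: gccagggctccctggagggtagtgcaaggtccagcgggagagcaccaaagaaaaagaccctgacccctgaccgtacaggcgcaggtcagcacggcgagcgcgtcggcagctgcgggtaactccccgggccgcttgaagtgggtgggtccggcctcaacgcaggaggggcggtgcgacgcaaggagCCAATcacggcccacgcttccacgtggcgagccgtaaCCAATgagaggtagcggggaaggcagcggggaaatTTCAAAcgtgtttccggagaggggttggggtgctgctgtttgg
Bub3: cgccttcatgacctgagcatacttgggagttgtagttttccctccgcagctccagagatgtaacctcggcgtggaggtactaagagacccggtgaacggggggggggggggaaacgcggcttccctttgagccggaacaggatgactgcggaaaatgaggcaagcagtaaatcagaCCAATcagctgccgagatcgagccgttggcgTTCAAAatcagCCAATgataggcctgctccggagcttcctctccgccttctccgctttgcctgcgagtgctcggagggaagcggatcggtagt
Ccnb1: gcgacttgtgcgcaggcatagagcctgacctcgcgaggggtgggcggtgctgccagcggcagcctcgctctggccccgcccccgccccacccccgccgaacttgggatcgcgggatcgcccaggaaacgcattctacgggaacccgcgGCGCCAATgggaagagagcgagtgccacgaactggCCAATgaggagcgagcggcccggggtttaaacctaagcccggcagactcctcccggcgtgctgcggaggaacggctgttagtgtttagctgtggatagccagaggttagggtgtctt

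In the promoters of Cenpf and Ttk the CHR letters began at positions 3 and 8 after the start, with CCAAT matches upstream. Bub3 held the CHR letters at position -43 with CCAAT matches on either side. In the Ccnb1 window a CCAAT match overlapped an E2F-type match, the reverse complement GCGCCAA, and TTTGAA was not among these letters. Of the 45 members 37 had a promoter entry, and 8 had none (Smc4, Ccna2, Cdc25c, Foxm1, Tpx2, Aurkb, Incenp and Kif20a). Members were counted as genes, by a match in any of their entries, and the background as promoter entries with the members included. CHR letters were present in 27 of the 37 (73%), against 17.9% of all 32851 promoters of the same length and 15.6% of the promoters of mRNA genes. CCAAT was also present in 27 of 37, against 37.4% of all promoters and 37.8% of those of mRNA genes, and 23 members (62.2%) held both, against 6.95% and 6.04%. E2F-type letters were present in 5 members (13.5%), against 9.57% of all promoters and 12.4% of those of mRNA genes. The median log2 ratio was 0.09 in the 27 members with CHR letters and 0.06 in the 10 without, and it was -0.12 in the 5 members with E2F-type letters and 0.09 in the 32 without. For CHR and CCAAT letters together it was 0.09 both in the 23 members with both and in the other 14. A match describes the letters and is not a measured site. The CHR was searched as TTTGAA only, so members without these letters may hold variant forms.

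The compressed library held 24296292 counts and the control library 25049919, and 21227 genes were detected in compressed cells, against 20945 in control cells. Of the cementoblast and osteoblast markers, Runx2, Sp7, Alpl, Spp1, Col1a1 and Col1a2 were above 1 CPM, Bglap was below it and Ibsp was at 0 in both. A count of 0 leaves room for a level of up to 0.124 CPM in compressed and 0.12 CPM in control cells. Of 6 macrophage markers 4 had reads in at least one library, with a summed level of 8.07 CPM in compressed and 7.66 CPM in control cells, most of it from Cd68 (6.18 CPM in compressed and 5.71 CPM in control cells), while Ptprc and Emr1 (Adgre1) were at 0 in both. Of 6 epithelial markers Krt8, Krt14 and Cdh1 had reads, with a sum of 1.94 CPM in compressed and 1.84 CPM in control cells, while Epcam, Krt5 and Krt18 were at 0 in both. Of 5 endothelial markers 3 had reads, with a sum of 4.32 CPM in compressed and 4.15 CPM in control cells, most of it from Vwf (3.46 CPM in compressed and 2.79 CPM in control cells), while Kdr and Tek were at 0 in both.

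All 45 members had at least 12.4 CPM in each library, and as a group they stood slightly higher in the compressed library. Together they held 216164 counts, or 0.89% of all counts, in the compressed library, against 208955 counts, or 0.834%, in the control library. Their summed CPM was 8901 in compressed and 8338 in control cells, a ratio of 1.07. Ratios were computed on totals scaled by trimmed mean of M-values (TMM), and a positive log2 ratio means more in the compressed library. The median log2 ratio was 0.09, with quartiles of -0.04 and 0.20 and a range from -0.28 (Ccnb1) to 0.45 (Aurkb). Over the 14001 genes with at least 1 CPM in either library the median was -0.01. Over the 8662 mRNAs whose mean CPM lay in the members' range of 12.9 to 1140 it was -0.03, with quartiles of -0.18 and 0.14. In bulk RNA, a different share of cells in mitosis and a different amount of RNA per mitotic cell cannot be told apart.

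None of the 45 members was past 2-fold in either direction, against 3.11% of all tested genes higher and 1.01% lower, or 0.993% and 0.0462% of the mRNAs in the members' CPM range. A limit of 1.2-fold, with a counting interval that excludes 1, was passed upward by 7 members (15.6%), against 16.7% of all tested genes and 13.9% of those mRNAs. Downward it was passed by 2 members (4.44%), against 14.8% and 15.3%. The share higher by 1.2-fold was thus near the background with this scaling, while a loess fit on mean abundance gave 10 of 45 members higher and 0 lower, against 16.5% and 14.4% of all tested genes. With intervals widened for an assumed coefficient of variation of 0.1 between cultures, 2 members (Aurkb and Cenpf) were higher and 0 lower, against 9.3% and 6.01% of all tested genes. Without regard to size, 33 members (73.3%) had a ratio above 1, against 48.6% of all tested genes and 45.3% of mRNAs in the range. Under DESeq2 size factors 31 members did, with Cenpa and Racgap1 just below 1. The counting interval lay above 1 for 22 members (48.9%), against 26.3% and 28.9%. It lay below 1 for 9 members (20%), against 28.6% and 36.9%. These intervals are exact 95% conditional binomial intervals and cover counting error only.

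**Figure D1:**
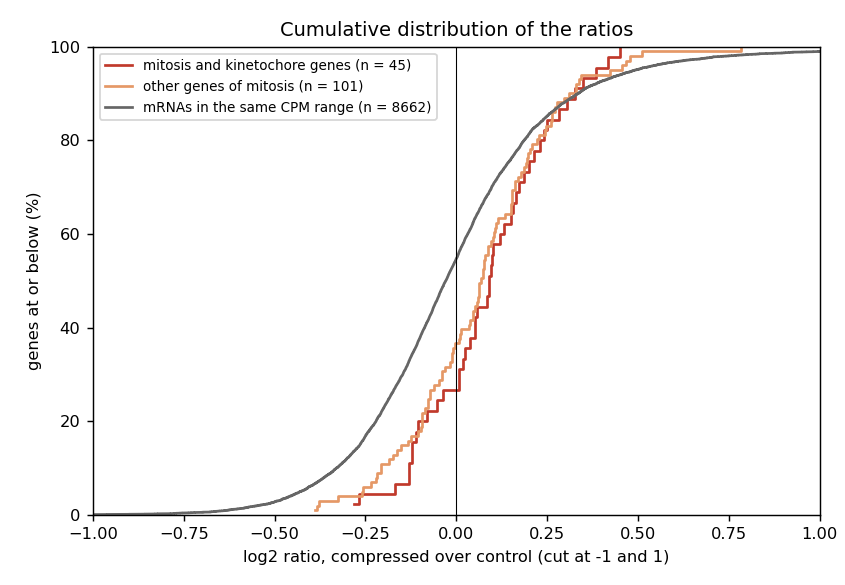
Cumulative distribution of the log2 ratio (x axis, compressed over control, cut at -1 and 1) as the percent of genes at or below each value (y axis), for the 45 mitosis and kinetochore genes, 101 other genes of mitosis and 8662 mRNAs in the same CPM range. The members' curve starts at -0.28, reaches its median at 0.09, against -0.03 for the mRNAs, and ends at 0.45, so no member lies in the outer tails of the mRNAs.

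The genes of chromosome structure and the proliferation marker Mki67, 4 in all, each had a ratio above 1. Of mRNAs in the members' CPM range, 45.3% did. Mki67, which encodes the Ki-67 coat protein of mitotic chromosomes, had 22729 counts in compressed cells, against 20216 in control cells. That is 936 CPM in compressed and 807 CPM in control cells, a ratio of 1.16 (95% counting interval 1.14 to 1.18). Topoisomerase II alpha (Top2a), which untangles sister chromatids, had 28628 counts in compressed and 27620 in control cells, and a ratio of 1.07 (1.05 to 1.09). The condensin subunits were close to each other, with a ratio of 1.10 for Smc4 (1914 counts in compressed and 1803 in control cells) and 1.09 for Smc2 (901 counts in compressed and 856 in control cells). The interval of Smc2 included 1, at 0.988 to 1.19.

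The cyclins and the regulators of entry into mitosis went in different directions. Cyclin B1 (Ccnb1), the main partner of CDK1 in mitosis, was the lowest of all 45 members, with 2910 counts in compressed cells, against 3651 in control cells. Its ratio was 0.822 (0.783 to 0.864), and 13.6% of the mRNAs in the same CPM range had a lower log2 ratio. Cyclin B2 (Ccnb2), the related cyclin found at the Golgi apparatus, had 1630 counts in compressed and 1434 in control cells and a ratio of 1.17 (1.09 to 1.26). The intervals of these cyclins lie on opposite sides of 1. Cyclin A2 (Ccna2), which acts in S phase and early mitosis, had 11539 counts in compressed and 11494 in control cells, for a ratio of 1.04 (1.01 to 1.06).

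Among the partners and activators of the cyclins, Cdk1 itself had 3263 counts in compressed and 3661 in control cells, and a ratio of 0.92 (0.877 to 0.964). Foxm1, the transcription factor of the late cell cycle, had 4988 counts in compressed and 5630 in control cells, for a ratio of 0.914 (0.88 to 0.95). Cdc25b, a phosphatase that starts CDK1 activation, was higher, with 3802 counts in compressed and 3127 in control cells and a ratio of 1.25 (1.196 to 1.32). Cdc25c, which completes that activation, had 323 counts in compressed and 311 in control cells, and its interval of 0.914 to 1.26 included 1. Over the 7 genes of this role the summed ratio was 1.002.

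Of the kinases that build the spindle, Plk1 had 3257 counts in compressed cells, against 3155 in control cells, a ratio of 1.07 (1.01 to 1.12). Aurora A (Aurka), the centrosome kinase, had 4195 counts in compressed and 4176 in control cells, with an interval of 0.993 to 1.08. Tpx2, the microtubule-bound activator of Aurora A, stood higher, with 947 counts in compressed and 748 in control cells and a ratio of 1.31 (1.19 to 1.44). The interval of Tpx2 lies wholly above that of Aurka.

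The chromosomal passenger complex, which corrects faulty attachments and then guides cytokinesis, contained the highest member. Its kinase Aurora B (Aurkb), on chromosome 11 at 69045624 to 69051664 of GRCm38, had 3376 counts in compressed cells, against 2551 in control cells. That is 139 CPM in compressed and 102 CPM in control cells, a ratio of 1.37 (1.297 to 1.44), and 6% of mRNAs in the CPM range had a higher log2 ratio. The other subunits were near 1, with intervals that included it. The scaffold Incenp had 2140 counts in compressed and 2122 in control cells, survivin (Birc5) 4328 counts in compressed and 4390 in control cells, and borealin (Cdca8) 1760 counts in compressed and 1712 in control cells, with ratios of 1.04, 1.017 and 1.06.

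The spindle assembly checkpoint had members on both sides of 1, and the interval of each of its 5 genes excluded 1. At this depth that is common: of mRNAs in the members' CPM range the interval lay above 1 for 28.9% and below 1 for 36.9%. The kinase Ttk (also called Mps1), which starts checkpoint signalling, had 2715 counts in compressed cells, against 2201 in control cells, a ratio of 1.27 (1.203 to 1.35). The checkpoint kinase Bub1 had 5895 counts in compressed and 4925 in control cells, and a ratio of 1.24 (1.19 to 1.28). Both kinases thus stood higher in compressed cells. BubR1 (Bub1b), a subunit of the mitotic checkpoint complex, had 5015 counts in compressed and 4643 in control cells, for a ratio of 1.11 (1.07 to 1.16). Mad2l1, which encodes the MAD2 subunit of the same complex, had 3105 counts in compressed and 3600 in control cells and a ratio of 0.89 (0.848 to 0.934). Bub3, which brings Bub1 and BubR1 to kinetochores, had 4030 counts in compressed and 5004 in control cells and a ratio of 0.831 (0.797 to 0.866). In these libraries Ttk, Bub1 and Bub1b thus stood above 1 and Mad2l1 and Bub3 below it. With intervals widened for an assumed coefficient of variation of 0.1 between cultures, none of them was called at 1.2-fold. Bub3 sits next to the 1.2-fold limit of 0.833.

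Kinetochore genes had the highest role median, 0.19 on the log2 scale. Of their 6 ratios 5 were above 1, against 45.3% of mRNAs in the members' CPM range. Cenpf, a large protein of the outer kinetochore, lies on chromosome 1 at 189640606 to 189688107 and had 11934 counts in compressed cells, against 9214 in control cells. Its ratio was 1.34 (1.301 to 1.37), at 491 CPM in compressed and 368 CPM in control cells, and 6.82% of mRNAs in the CPM range had a higher log2 ratio. The kinetochore motor Cenpe had 4056 counts in compressed and 3523 in control cells, and a ratio of 1.19 (1.14 to 1.24), just below the 1.2-fold limit.

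Subunits of the NDC80 complex, the microtubule coupler of the kinetochore, did not share a direction. Ndc80 had 2286 counts in compressed and 2053 in control cells, for a ratio of 1.15 (1.08 to 1.22), and Spc25 had 1151 counts in compressed and 1043 in control cells, a ratio of 1.14 (1.05 to 1.24). Nuf2, the direct partner of Ndc80, had 2881 counts in compressed and 3256 in control cells, and a ratio of 0.913 (0.868 to 0.96). Cenpa, the histone H3 variant that marks centromeres, had 1739 counts in compressed and 1786 in control cells and a ratio of 1.005 (0.94 to 1.07).

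**Figure D2:**
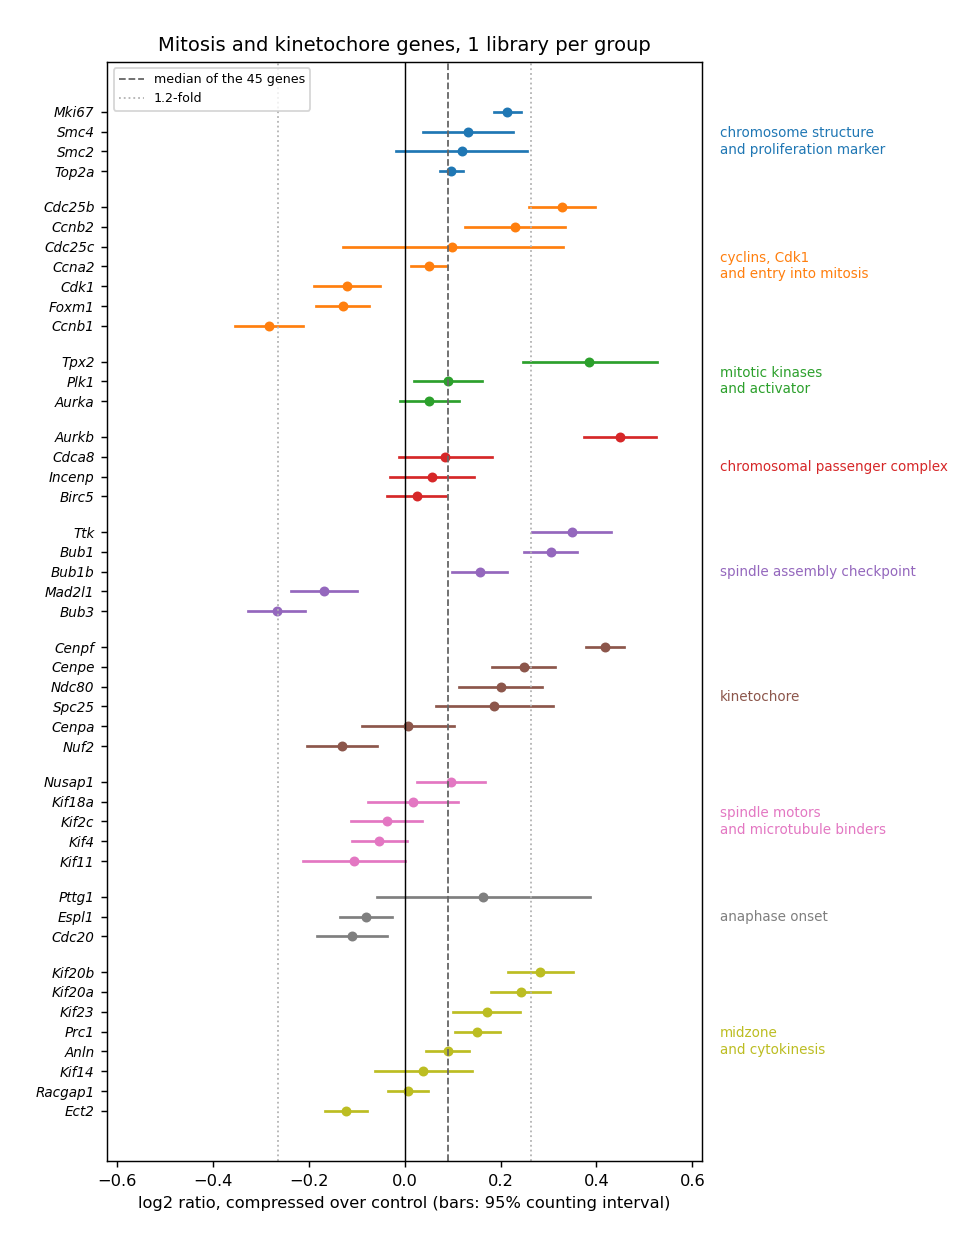
Log2 ratio of the compressed over the control library (x axis) for each of the 45 genes (y axis), coloured and grouped by role; points are the ratios, bars their 95% counting intervals, the dashed line the median of 0.09 and the dotted lines 1.2-fold. Aurkb at 0.45 and Cenpf at 0.42 are farthest to the right, Ccnb1 at -0.28 and Bub3 at -0.27 farthest to the left.

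Spindle motors and microtubule binders lay near 1, with a median log2 ratio of -0.04. Of their 5 ratios 2 were above 1, against 45.3% of mRNAs in the members' CPM range. Kif11, the motor that pushes spindle poles apart, had 1355 counts in compressed cells, against 1504 in control cells, and its ratio of 0.93 had an interval from 0.863 to 1.001. The chromosome-bound motor Kif4 had 4804 counts in compressed and 5142 in control cells, and the microtubule depolymerase Kif2c (MCAK) 2825 counts in compressed and 2992 in control cells, with ratios of 0.964 and 0.974. Kif18a, which dampens chromosome oscillation, had 1829 counts in compressed and 1865 in control cells, a ratio of 1.01. Nusap1, a microtubule bundler, was the member of this role whose interval excluded 1, with 3297 counts in compressed and 3183 in control cells and a ratio of 1.07 (1.018 to 1.12).

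Genes of anaphase onset had a median log2 ratio of -0.08. Of their 3 ratios 1 was above 1, against 45.3% of mRNAs in the members' CPM range. Cdc20, the activator of the anaphase-promoting complex, had 2835 counts in compressed cells, against 3157 in control cells, a ratio of 0.927 (0.881 to 0.975). Separase (Espl1), the protease that cuts cohesin, had 5178 counts in compressed and 5652 in control cells, for a ratio of 0.945 (0.91 to 0.982). Securin (Pttg1), its inhibitor, had 354 counts in compressed and 326 in control cells, and its interval of 0.961 to 1.31 included 1.

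Midzone and cytokinesis genes had a median log2 ratio of 0.12. A ratio above 1 was found in 7 of 8, against 45.3% of mRNAs in the members' CPM range. Kif20b, a kinesin of the late midbody, was the member past 1.2-fold, with 3901 counts in compressed cells, against 3308 in control cells, and a ratio of 1.22 (1.16 to 1.27). Kif20a, which carries the passenger complex to the midzone, had 4648 counts in compressed and 4056 in control cells, and a ratio of 1.18 (1.13 to 1.23). Kif23, the motor subunit of centralspindlin, had 3458 counts in compressed and 3169 in control cells, a ratio of 1.13 (1.07 to 1.18), while its partner Racgap1 had 8923 counts in compressed and 9162 in control cells, a ratio of 1.005 (0.976 to 1.03). In these libraries the intervals of these centralspindlin subunits did not overlap, but they cover counting error only. The microtubule bundler Prc1 had 7496 counts in compressed and 6963 in control cells, for a ratio of 1.11 (1.08 to 1.15). Anillin (Anln), the scaffold of the contractile ring, had 8181 counts in compressed and 7931 in control cells, a ratio of 1.06 (1.03 to 1.098), and the midzone kinesin Kif14 had 1579 counts in compressed and 1586 in control cells, with an interval of 0.958 to 1.10. Ect2, the exchange factor that activates RhoA at the cleavage furrow, was below 1, with 8064 counts in compressed and 9054 in control cells and a ratio of 0.919 (0.892 to 0.947).

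**Figure D3:**
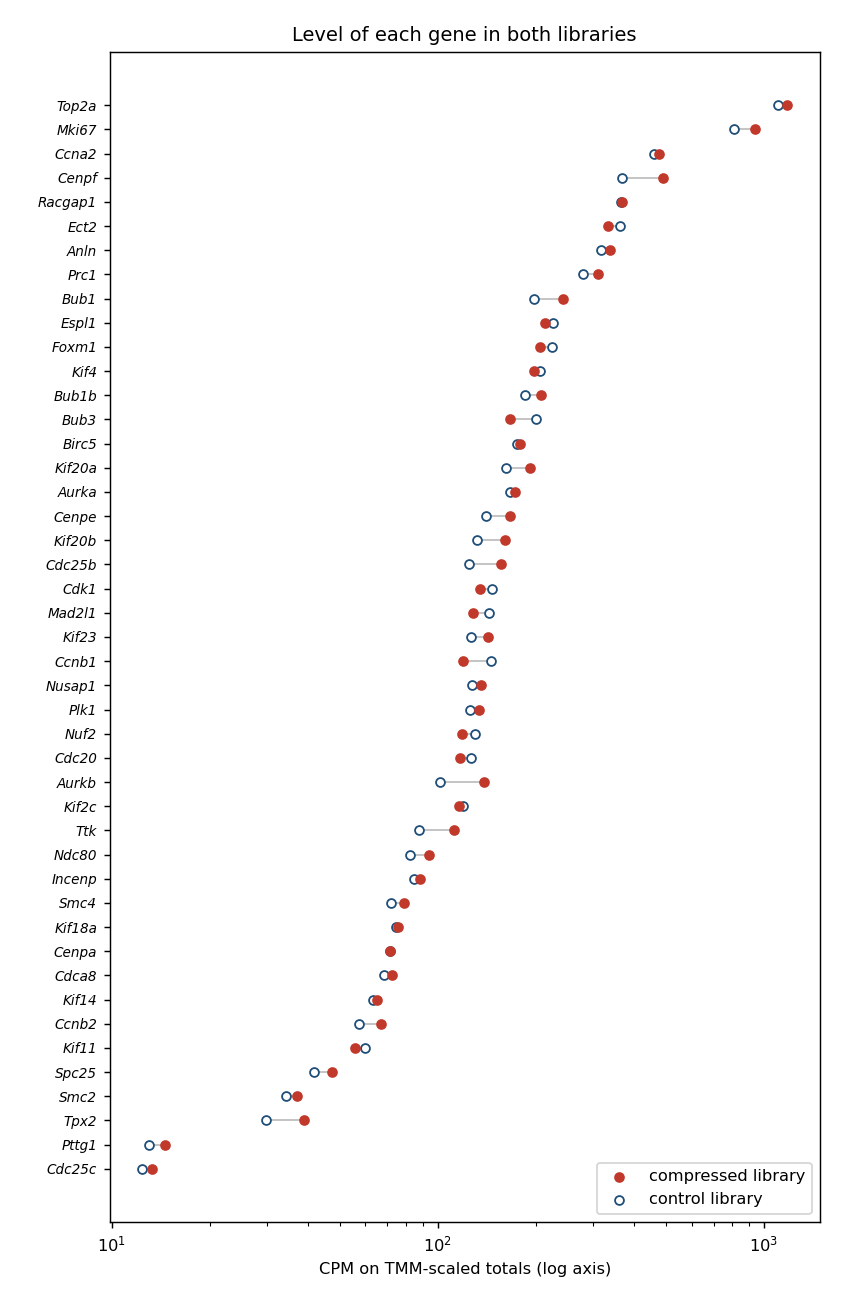
CPM on TMM-scaled totals (x axis, log scale) of each of the 45 genes (y axis, ordered by mean CPM) in the compressed (filled red) and the control library (open blue), 1 library each. The gaps between libraries are small beside the spread among genes, and Aurkb, at 139 CPM in compressed and 102 CPM in control cells, has the widest gap on this scale; CPM is not divided by transcript length, so genes are not compared with each other.

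Some members overlap other annotated genes, and the strand setting of the counting is not given, so their counts are uncertain. The span of Prc1 overlaps Rccd1 over 21669 bases, and Rccd1 had 258 counts in compressed cells, against 159 in control cells. Kif20a overlaps Cdc23 over 4930 bases, with 1786 counts in compressed and 2146 in control cells for Cdc23. It also overlaps Brd8 over 240 bases, with 4070 counts in compressed and 3353 in control cells for Brd8. Nusap1 overlaps Oip5 (572 counts in compressed and 476 in control cells), and Anln overlaps 9530077C05Rik (150 in compressed and 89 in control cells). Ccna2 overlaps Exosc9 (1425 in compressed and 1504 in control cells), and Aurka overlaps Cstf1 (1549 in compressed and 1676 in control cells). Kif11 overlaps the pseudogene Gm8663, which had 229 counts in compressed and 138 in control cells. How reads with several alignments were counted is also not given, which bears on members with processed copies.

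Other genes of mitosis, in 5 lists, were spread around a median near that of the members. Of the 102 listed genes 101 were above 1 CPM and Stag1 had 0 counts in both libraries. The 101 had a median log2 ratio of 0.07 and 64 ratios above 1 (48.6% of all tested genes had such a ratio). At 1.2-fold 16 were higher (16.7% of all tested genes were) and 4 lower (14.8% were), and none passed 2-fold. Among kinetochore and centromere genes outside the members, Cenpk, a subunit of the inner kinetochore, had 517 counts in compressed cells, against 310 in control cells, a ratio of 1.72 (1.49 to 1.99). Hjurp, the chaperone that loads CENP-A, had 20679 counts in compressed and 15444 in control cells, a ratio of 1.38 (1.35 to 1.41). The lowest of that list were Mis12, at 0.767, and Zw10, at 0.798.

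The other mitosis lists had medians from 0.00 to 0.17. Ratios above 1 numbered 18 of 34 in the kinetochore and centromere list and 11 of 14 in condensin and cohesin genes. They numbered 8 of 15 in mitotic kinases and entry regulators and 9 of 18 in the anaphase-promoting complex and its regulators. Spindle and cytokinesis genes were highest, with 18 of 20 ratios above 1, against 48.6% of all tested genes. Psrc1 stood at 1.34 and Dlgap5 at 1.26, against Plk4 at 0.942 and Numa1 at 0.857. Numa1 had 113 counts in compressed and 136 in control cells, and its interval of 0.662 to 1.11 included 1. Mitotic kinases and entry regulators had a median of 0.06, from Cdca3 at 1.43 and Cdca2 at 1.39 to Cks1b at 0.867 and Cdc25a at 0.763. Condensin and cohesin genes had 0.09, from Ncaph2 at 1.23 and Ncaph at 1.21 to Pds5b at 0.968 and Pds5a at 0.951. The anaphase-promoting complex and its regulators had a median of 0.00, with Anapc11 at 1.13 and Anapc2 at 1.07 against Anapc15 at 0.835 and Cdc26 at 0.769.

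Genes of earlier cell cycle phases had lower medians than the mitosis genes. DNA replication genes stood at a median log2 ratio of -0.11, and 9 of 32 ratios were above 1, against 48.6% of all tested genes. At 1.2-fold 0 of them were higher and 9 lower, against 16.7% and 14.8% of all tested genes. With 1 library in each group the difference from the mitosis genes has no test. Cyclin E1 (Ccne1), which starts S phase, had 494 counts in compressed cells, against 786 in control cells, a ratio of 0.649, and the nucleotide enzyme subunit Rrm2 had 4282 counts in compressed and 6469 in control cells, a ratio of 0.683. Gmnn, at 1.14, and Gins4, at 1.12, were the highest. The 6 G1 cyclins and kinases had a median of -0.24, with Ccnd1 at 0.688 and Ccnd2 at 0.726, against 1.21 for Ccnd3 and 1.023 for Cdk2. The interval of Cdk2, 0.968 to 1.08, included 1.

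Regulators of the members' promoters and inhibitors of cyclin-dependent kinases completed the lists. The MuvB, MYB, E2F and RB family had a median log2 ratio of -0.07. Its highest members were 2 repressors of cell cycle genes, Rb1, with 534 counts in compressed cells, against 296 in control cells (ratio 1.86, 1.61 to 2.15), and Rbl2, the p130 subunit of DREAM, with 3427 counts in compressed and 2226 in control cells (1.59, 1.51 to 1.68). E2f6, at 0.757, and the activator E2f3, at 0.676, were the lowest. CDK inhibitors and arrest genes had a median of 0.28, and 8 of 13 were higher at 1.2-fold, against 16.7% of all tested genes. Past 2-fold were Ccng2, at 2848 counts in compressed and 304 in control cells, and Cdkn1a, the p21 inhibitor, at 2750 counts in compressed and 988 in control cells. Gadd45g stood at 0.911, with an interval of 0.792 to 1.05 that included 1, and Cdkn2c at 0.77.

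**Figure D4:**
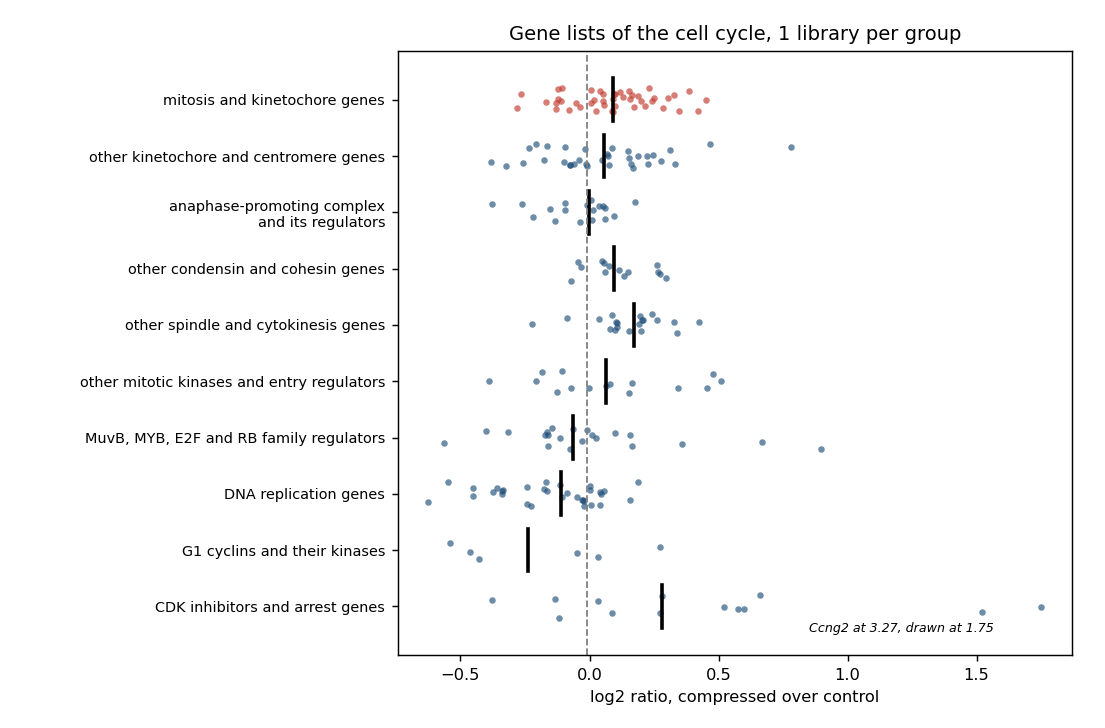
Log2 ratio of the compressed over the control library (x axis) for the genes above 1 CPM in each list (y axis); points are genes, black bars list medians, and the dashed line is the median of all tested genes at -0.01. The mitosis and kinetochore genes, in red, have a median of 0.09, against -0.11 for DNA replication genes and 0.28 for CDK inhibitors and arrest genes; Ccng2, at 3.27, is drawn at the right edge.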

How the data were processed

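The deposited counts are whole-number reads per gene for 1 compressed and 1 control library, with no normalization by the authors. Per the submitters' processing notes, HISAT2 (a spliced aligner) and the GRCm38 build were used. How counting was done (tool, annotation, strand, reads with several alignments) is not given in the sources consulted here. Library totals were scaled by TMM (edgeR 4.0.16, R 4.3.3), and CPM values and ratios were computed on those. A prior count of 0.5 entered the log2 ratio only. The 95% intervals of the ratios are exact Clopper-Pearson intervals conditional on a gene's total (SciPy 1.17.1). Reads are not independent molecules, so intervals cover counting error only. A gene was tested when it had at least 1 CPM in either library, and called higher or lower past 2-fold or 1.2-fold with an interval that excludes 1. The code was tested on simulated libraries. The pass criteria used those with counting error only, so they do not bear on variation between cultures. All 45 members are named, and of each related list the 2 highest and 2 lowest ratios and any gene past 2-fold. Members, lists, fold limits and alternatives were chosen with earlier results of these data known. Listed symbols without a row were matched through RefSeq synonyms (3 genes). Positions are GRCm38.p6 spans counted from 1. Alternatives were other scalings (DESeq2 1.42.0 size factors among them), other CPM minimums, another prior count and other interval rules.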

Additional observations from a re-analysis of the deposited data

How the results depend on the processing

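The median log2 ratio of the 45 members ranged from 0.08 (DESeq2 size factors) to 0.12 (loess fit on mean abundance) over the alternatives tried. These were scalings, CPM minimums and a prior count. Where a CPM minimum was set, it exceeded the median of all tested genes by 0.10 to 0.12. With no minimum the difference was 0.09, but the median over all 44792 genes, many without reads, was then 0. None of the 45 passed 2-fold under any alternative. The count higher at 1.2-fold was 7, or 10 with the loess fit, which added Ccnb2, Cenpe and Kif20a and put 16.5% of all tested genes higher. With intervals widened for an assumed coefficient of variation of 0.1 between cultures it was 2, Aurkb and Cenpf. The other 5 calls did not hold at this assumed value, and no other value was tried. The count lower at 1.2-fold was 2 (Ccnb1 and Bub3), 1 with upper-quartile factors (Ccnb1; 13.9% of all tested genes were lower), 0 with the loess fit (14.4%) and 0 with the widened intervals. Bub3 lies at a ratio of 0.831, next to the limit of 0.833. Under DESeq2 size factors the log2 ratios of Racgap1 and Cenpa were below 0, at -0.0048 and -0.0052, and no other member changed sign under any scaling. The alternative fit on protein length was not run, since no protein lengths were used here, and so the relation of the ratios to transcript length was not tested. No paired analysis was possible because each group has 1 library.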

Other observations

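Known partners among the members were set against each other within each library, which takes the scaling out of the comparison. The 15 pairs were chosen after the values were seen, some share a gene, and the intervals cover counting error only. In the order written, the interval of the change lay above 1 for 10 pairs, below 1 for 2 and included 1 for 3. The order within a pair was a choice, and swapping it turns a change above 1 into one below 1. No share over other gene pairs was computed, so these counts are no result about partners. Bub1 had 1.46 counts for each count of Bub3 in the compressed library, against 0.984 in the control library, a change of 1.49-fold (95% counting interval 1.41 to 1.57). For Bub1b over Bub3 the values were 1.24 and 0.928, a change of 1.34-fold (1.27 to 1.42). Aurkb over Incenp stood at 1.58 in compressed cells and 1.202 in control cells, a change of 1.31-fold (1.21 to 1.42). Ndc80 over Nuf2 stood at 0.793 against 0.631, a change of 1.26-fold (1.16 to 1.36), and Ccnb2 over Cdk1 at 0.4995 against 0.392, a change of 1.28-fold (1.17 to 1.39). Tpx2 over Aurka was 0.226 against 0.179, a change of 1.26-fold (1.13 to 1.40). Smaller changes upward were those of Pttg1 over Espl1, 1.19-fold (1.015 to 1.38), Prc1 over Kif4, 1.15-fold (1.095 to 1.21), Ccna2 over Cdk1, 1.13-fold (1.07 to 1.19), and Kif23 over Racgap1, 1.12-fold (1.06 to 1.19). The changes downward were those of Ccnb1 over Cdk1, which was 0.892 in compressed cells and 0.997 in control cells, a change of 0.894-fold (0.836 to 0.957), and of Ect2 over Racgap1, which was 0.904 in compressed cells and 0.988 in control cells, a change of 0.915-fold (0.877 to 0.954). For the remaining 3 pairs the interval included 1. Smc2 over Smc4 was 0.471 in compressed cells and 0.475 in control cells, with an interval of the change from 0.885 to 1.11. Spc25 over Ndc80 was 0.504 against 0.508 (0.894 to 1.098), and Birc5 over Cdca8 was 2.46 against 2.56 (0.886 to 1.04). Whether such shifts between partners recur in other cultures cannot be told from 1 library in each group.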
